A study of Mus musculus with 28 samples.

Results

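Complex I of the respiratory chain (NADH:ubiquinone oxidoreductase) was followed in newborn mouse lungs through the genes of its nuclear-encoded subunits. Members were the genes whose symbol begins with Nduf followed by the letters a, ab, b, c, s or v and a number, read from probe sets with a single symbol, with the brightest probe set standing for a gene. The rule gave 34 of the 22180 genes measured, from 37 probe sets. It did not use any measured difference between groups, though it was chosen with earlier results of these data known. A further 6 probe sets that name an Nduf gene together with another symbol were not used, so that Ndufb2, Ndufb4 and Ndufs6 have no value here, and Ndufb1 and the mitochondrially encoded subunits were not analysed here. Assembly factors, whose symbols begin with Ndufaf, are not members.

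Whole lungs were collected on postnatal day 0, with 1 array per animal. Untreated groups were Control (3 arrays), HRas-KO (3), NRas-KO (3) and DKO, which lacks both HRas and NRas (5). In the second arm the same genotypes were exposed before birth to N-acetyl cysteine (NAC, an antioxidant and glutathione precursor): Control+NAC (4 arrays), DKO+NAC (4), HRas-KO+NAC (3) and NRas-KO+NAC (3). Strain, sex and the nature of the alleles are not given in the labels. A shared protocol entry mentions 0.5% NAC given to pregnant females for 3 samples only, whereas the sample labels assign NAC to 14, and these were followed; for HRas-KO+NAC the source labels say NAC and the titles do not. HRas and NRas are small GTPases of the Ras family, and the series title reports fatal respiratory distress and raised oxidative phosphorylation genes in the DKO, which is the question the member comparisons address.

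Complex I takes electrons from NADH in the mitochondrial matrix, passes them through a flavin and a chain of iron-sulfur clusters to ubiquinone, and pumps protons across the inner membrane. It is L-shaped: a peripheral arm in the matrix holds the redox centres, and a membrane arm holds the proton pumps, with accessory subunits around both. In the lung, alveolar epithelial cells that make surfactant are rich in mitochondria. Genes for complex I subunits lie on many chromosomes, and factors such as NRF1, the ETS factor GABP (the product of Gabpa and Gabpb1) and YY1 are known to bind promoters of many of them.

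Promoters are shown for the members on which the results turn: Ndufc2 and Ndufa3, which differed between the arms in every genotype, and Ndufa11 and Ndufc1, which differed between untreated DKO and Control. Each runs from 250 bases before the RefSeq start to 30 bases into the transcript (280 bases, GRCm38.p6, 5′ to 3′ on the gene's strand). Capitals mark letters of 3 short motifs searched on both strands: GCATGCGC (a core of the NRF1 motif), CCGGAAG (a core of the ETS motif) and AAGATGGC (a core of the YY1 motif). They lie at chr7:97399753-97400032 on the plus strand (Ndufc2), chr7:3617123-3617402 on the plus strand (Ndufa3), chr17:56717512-56717791 on the plus strand (Ndufa11) and chr3:51408926-51409205 on the minus strand (Ndufc1).
Ndufc2: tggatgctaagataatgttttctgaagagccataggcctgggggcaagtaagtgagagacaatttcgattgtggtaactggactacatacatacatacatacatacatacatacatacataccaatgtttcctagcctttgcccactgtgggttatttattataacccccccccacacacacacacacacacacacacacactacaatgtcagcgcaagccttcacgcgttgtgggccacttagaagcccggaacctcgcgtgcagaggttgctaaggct
Ndufa3: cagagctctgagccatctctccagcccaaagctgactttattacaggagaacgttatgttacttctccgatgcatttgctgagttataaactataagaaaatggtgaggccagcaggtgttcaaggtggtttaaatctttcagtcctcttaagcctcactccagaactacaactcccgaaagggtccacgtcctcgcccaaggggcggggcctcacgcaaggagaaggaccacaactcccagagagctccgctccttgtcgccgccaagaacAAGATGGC
Ndufa11: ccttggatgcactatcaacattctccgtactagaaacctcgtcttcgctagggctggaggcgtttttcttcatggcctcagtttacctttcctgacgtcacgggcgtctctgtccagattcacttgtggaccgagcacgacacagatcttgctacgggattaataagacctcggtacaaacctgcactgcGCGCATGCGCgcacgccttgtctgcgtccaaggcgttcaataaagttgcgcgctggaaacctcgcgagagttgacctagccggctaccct
Ndufc1: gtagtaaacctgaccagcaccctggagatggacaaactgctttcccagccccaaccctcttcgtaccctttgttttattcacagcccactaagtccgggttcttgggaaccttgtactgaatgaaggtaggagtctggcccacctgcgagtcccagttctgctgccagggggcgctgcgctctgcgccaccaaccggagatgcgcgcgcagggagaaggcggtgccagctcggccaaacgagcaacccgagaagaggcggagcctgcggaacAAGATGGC

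The Ndufc2 window held none of the 3 motifs. Ndufa3 and Ndufc1 both held the YY1 core at base 23 of the transcript, and Ndufa11 held the NRF1 core on both strands, overlapping, at -60 and -58. Promoters were listed for 30 of the 34 members, 32 in all since some genes have several. The NRF1 core occurred in 3 of these 32 (9.38%; Ndufa11, Ndufa6 and Ndufa8), against 2.58% of all 32851 promoters in windows of the same length. The ETS core occurred in 4 (12.5%; Ndufb6, Ndufb7, Ndufs3 and Ndufs8), against 8.45%, and the YY1 core in 2 (6.25%), against 2.29%. These are matches of letters and say nothing of binding in these lungs.

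All but 1 member were above the dimmest 40% of genes, Ndufs5 being the exception with a mean log2 RMA value of 4.63 over the 28 arrays. The levels of a probe set depend on its sequence, so members are compared between arrays and not with one another. Array medians lay between 5.25 and 5.41. Mean values of the catalytic core of the peripheral arm (Ndufs1, Ndufs3, Ndufs7, Ndufs8, Ndufv1 and Ndufv2) ranged from 6.56 to 8.74. Those of the 8 accessory subunits of the peripheral arm (Ndufa2, Ndufa5, Ndufa6, Ndufa7, Ndufa9, Ndufa12, Ndufs4 and Ndufv3) ranged from 6.76 to 8.46, and Ndufab1, the mitochondrial acyl carrier protein, averaged 6.16. The 9 accessory subunits of the proximal membrane arm (Ndufa1, Ndufa3, Ndufa8, Ndufa10, Ndufa11, Ndufa13, Ndufc1, Ndufc2 and Ndufs5) ranged from 4.63 to 9.32, and the 8 of the distal membrane arm (Ndufb3 and Ndufb5 to Ndufb11) from 5.37 to 9.98. The symbol rule also takes in Ndufa4, a protein now assigned to complex IV (cytochrome c oxidase), and its paralog Ndufa4l2, known as a hypoxia-induced gene. They averaged 9.60 and 8.57.

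**Figure D1:**
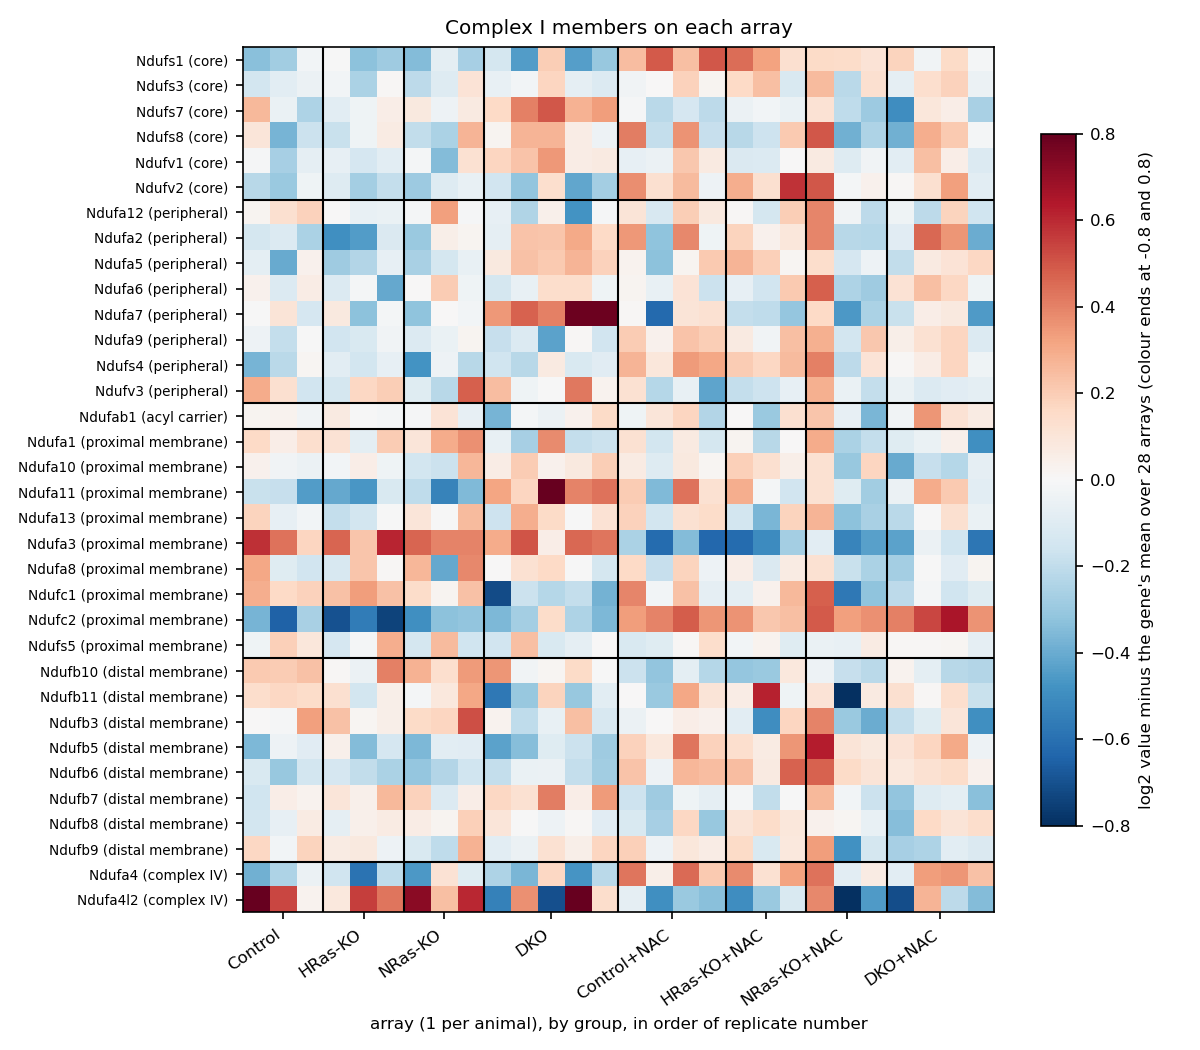
Log2 RMA value of each of the 34 members on each of the 28 arrays minus that member's mean over all arrays, with members in rows by role and arrays in columns by group. Ndufc2 is blue or pale in all but 1 of the untreated columns and red in every NAC column, Ndufa3 runs the other way, and Ndufa7 and Ndufa11 are red in the 5 untreated DKO columns.

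Nras was lower in the genotypes that lack it: 7.40 to 7.74 in DKO and 7.58 to 7.77 in NRas-KO, against Control arrays at 8.07 to 8.35. The difference from Control was called in DKO (-0.61 ± 0.11, adjusted p = 0.0018) but not in NRas-KO (-0.55 ± 0.12, adjusted p = 1), nor against Control+NAC in DKO+NAC (-0.58 ± 0.11, adjusted p = 0.12) or NRas-KO+NAC (-0.63 ± 0.11, adjusted p = 0.11). In those 3 comparisons Nras, the gene named in the genotype, was estimated lower but did not pass once p was adjusted over all genes. An absent call there thus does not show an absent difference. The array labelled DKO+NAC replicate 4 read 8.08, within the Control range and above the other 3 arrays of its group (7.56 to 7.74), while Control+NAC read 8.21 to 8.47. Its Nras value goes against its label, so that the label is in doubt. Without this array, 7 members in place of 8 were called in DKO+NAC against DKO, Ndufa4 being lost (0.43 ± 0.16, adjusted p = 0.077). The median member difference there was 0.0033 in place of -0.09, and still none of the 34 members was called against Control+NAC or in the difference of NAC responses between DKO and Control. Sample titles end in a code whose start may mark a litter or collection; no start occurs in both arms, and the 3 starts of the untreated DKO arrays occur in no other group, so neither NAC nor loss of both genes in untreated lungs can be told apart from that code. Every HRas-KO+NAC array has the start T453, Control+NAC replicates 1 to 3 share T445, and DKO replicates 1 to 3 share G185. If a start marks a litter, the HRas-KO+NAC group rests on a single litter. The labels do not say which newborns shared a dam, and n counts animals. The lung label was checked against 8 markers of alveolar type 2 cells, none of which was under the array median throughout; Sftpc, a surfactant protein gene, read from 12.99 to 13.23. Skeletal muscle markers (10 of 10 measured, none under the array median throughout) varied most between arrays: their mean deviation ran from -0.13 to 1.59 in DKO, -0.10 to 0.70 in Control, -0.08 to 1.35 in NRas-KO and -0.19 to 0.04 in HRas-KO, and from -0.53 to -0.17 over the 14 NAC arrays. Of the 7 brown fat markers, 5 including Ucp1 stayed under the array median on every array.

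In untreated DKO lungs 2 members were higher than in Control and 1 was lower. Ndufa11, a membrane subunit, rose 1.65-fold; Ndufa7, a peripheral-arm subunit, rose 1.48-fold; and Ndufc1, a small membrane subunit, fell to 0.683 times the Control level. That is 3 of 34 members (8.82%), beside 3.83% of all genes called in the same comparison at an adjusted p under 0.05 (2.48% higher and 1.35% lower). None of the 6 core subunits passed, and the member differences were centred near 0, with a median log2 difference of 0.01 (0.02 over all genes), 18 positive and 16 negative.

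Ndufa11 read 8.02, 8.01 and 7.75 on the Control arrays and 8.51, 8.37, 9.12, 8.59 and 8.63 on the DKO arrays. It read 7.78, 7.73 and 8.07 in HRas-KO and 8.0, 7.66 and 7.84 in NRas-KO. Every DKO array lay above every untreated array of the other 3 genotypes. The log2 difference from Control was 0.72 ± 0.16 (SE, adjusted p = 0.012). Ndufa11 has a second, dimmer probe set (mean 5.05), which differed by -0.01 ± 0.17 (adjusted p = 0.98), so the change rests on the brighter one.

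Ndufa7 read 7.29, 7.40 and 7.16 in Control and 7.64, 7.77, 7.69, 8.08 and 8.08 in DKO, with 7.37, 6.96 and 7.28 in HRas-KO and 6.97, 7.30 and 7.27 in NRas-KO. The DKO arrays again lay above all 9 other untreated arrays, and the log2 difference from Control was 0.57 ± 0.16 (adjusted p = 0.048). Ndufc1 read 6.83, 6.70 and 6.73 in Control, 6.78, 6.88 and 6.77 in HRas-KO and 6.68, 6.56 and 6.77 in NRas-KO. In DKO it read 5.82, 6.37, 6.31, 6.35 and 6.16, all below those 9 arrays, and the log2 difference from Control was -0.55 ± 0.16 (adjusted p = 0.049).

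Each of these 3 calls was lost in some of 38 other fits: Ndufa11 in 4, Ndufa7 in 25 and Ndufc1 in 30, with no change of direction. Many of these fits left out an array of neither group compared, where the difference itself could not change. Without Control replicate 3, or without the 5 arrays with the most skeletal muscle signal (DKO replicates 1, 3 and 5, NRas-KO replicate 2 and Control replicate 3), no member was called, and the Ndufa11 difference was 0.63 ± 0.19 (adjusted p = 0.065) and 0.47 ± 0.20 (adjusted p = 0.36). In a bulk lung sample fewer cells of a type and less RNA per cell cannot be told apart. The mean deviation of the 8 alveolar type 2 markers was -0.30 to 0.03 in DKO and 0.03 to 0.24 in Control. Those 8 did not move together. Etv5 was lower in DKO (7.23 to 7.81 against 8.20 to 8.79 in Control), whereas Napsa was higher (10.09 to 10.35 against 9.96 to 10.04). The group means of Abca3, Lamp3, Sftpa1, Sftpb and Slc34a2 were lower in DKO, and that of Sftpc was slightly higher (13.14 against 13.08). The mean deviation of the 3 erythroid markers measured of 9 listed was 0.12 to 0.70 in DKO and -0.18 to 0.26 in Control. The part of these markers in the member differences was not tested.

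**Figure D2:**
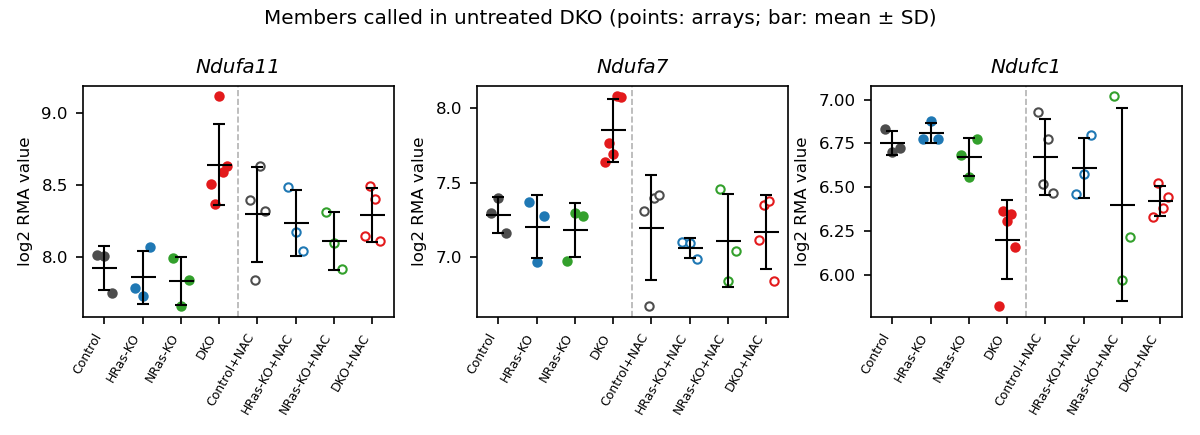
Log2 RMA values of Ndufa11, Ndufa7 and Ndufc1 by group, untreated groups left of the dashed line (filled points) and NAC groups right of it (open points); each point is an array, and bars give the mean ± SD. The 5 untreated DKO arrays stand above the other untreated arrays for Ndufa11 (8.37 to 9.12) and Ndufa7 (7.64 to 8.08) and below them for Ndufc1 (5.82 to 6.37).

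Neither single knockout gave a called member. In both, fewer genes had an unadjusted p under 0.05 than that threshold gives where nothing differs. The fit was thus strict there, and an absent call does not show an absent difference. In HRas-KO against Control 0 of 34 members passed, beside 0% of all genes. By limma 0 members and 190 genes (0.857%) had an unadjusted p under 0.05. The smallest p-values belonged to Ndufc2, a membrane subunit (log2 difference -0.24 ± 0.12, adjusted p = 1), Ndufb7 (0.16 ± 0.12) and Ndufa6 (-0.17 ± 0.15). In NRas-KO against Control 0 of 34 passed, beside 0% of all genes, with 0 members and 231 genes (1.04%) at an unadjusted p under 0.05. There the smallest p-values belonged to Ndufb8 (0.14 ± 0.12, adjusted p = 1), Ndufb3 (0.17 ± 0.18) and Ndufa1 (0.14 ± 0.16), all of the membrane arm.

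The DKO value was also set against what the 2 single knockouts add up to. No member of 34 passed this test of a non-additive effect, beside 0.225% of all genes (50 genes). Ndufa11 came nearest, with an excess of 0.87 ± 0.24 over the sum of the single effects (adjusted p = 0.12), followed by Ndufa7 (0.75 ± 0.24, adjusted p = 0.22) and Ndufc2 (0.40 ± 0.16, adjusted p = 0.38). At an unadjusted p under 0.05 there were 5 members and 2123 genes. With array weights in the fit 1 member was called, Ndufa11 (0.88 ± 0.20, adjusted p = 0.029).

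Antenatal NAC went with the largest member differences in the data, in both directions. Ndufc2 was higher and Ndufa3 lower in the NAC arm of all 4 genotypes, and these were the only members called in all 4 comparisons (2 of 34, 5.88%, against 546 genes, 2.46%). In all, 13 of 34 members (38.2%) were called in at least 1 NAC comparison, 7 of them higher and 6 lower, against 24.8% of all genes. The members did not shift as a block: their median log2 difference was -0.09 in DKO, 0.00 in controls, 0.04 in HRas-KO and -0.03 in NRas-KO.

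Per comparison, Control+NAC against Control called 5 members higher and 2 lower (20.6% of members, beside 13.5% of all genes, 7.86% higher and 5.68% lower). HRas-KO+NAC against HRas-KO called 5 higher and 1 lower (17.6%, beside 11.8%, 6.73% higher and 5.1% lower). NRas-KO+NAC against NRas-KO called 2 higher and 1 lower (8.82%, beside 6.42%, 2.86% higher and 3.56% lower). DKO+NAC against DKO called 3 higher and 5 lower (23.5%, beside 12.2%, 5.74% higher and 6.46% lower).

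**Figure D3:**
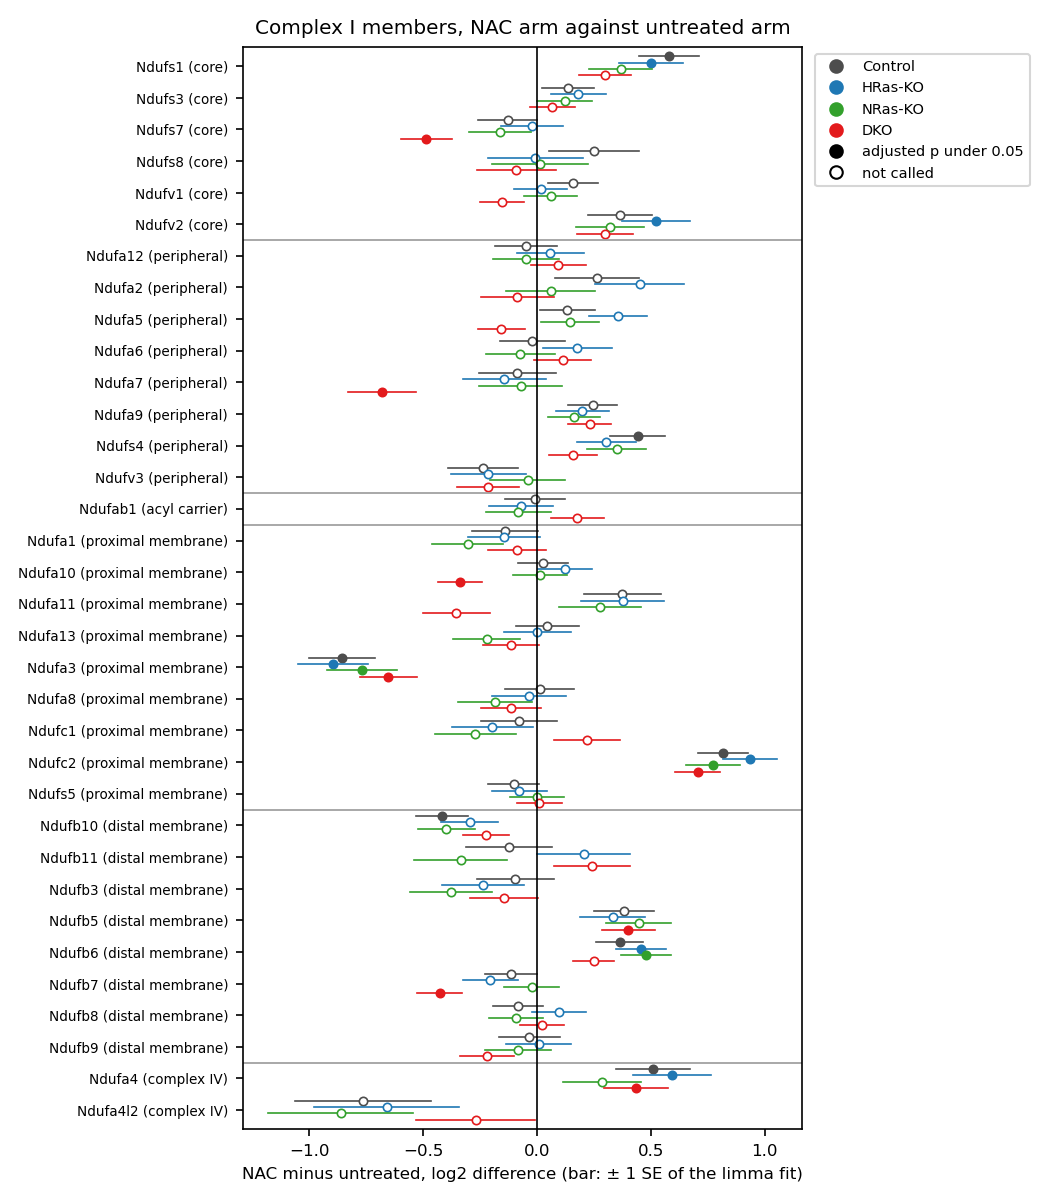
Log2 difference between the NAC and the untreated arm for each of the 34 members in each of the 4 genotypes, with bars of 1 SE from the limma fit; filled points had an adjusted p under 0.05. Ndufc2 lies between 0.71 and 0.94 and Ndufa3 between -0.90 and -0.65 in all 4 genotypes, while Ndufs7, Ndufa7, Ndufa10 and Ndufb7 are filled, below 0, for DKO alone.

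Ndufc2 is an accessory subunit of the proximal membrane arm (probe set 17480343). On untreated arrays it read 8.71, 8.43 and 8.82 in Control, 8.38, 8.52 and 8.34 in HRas-KO, 8.59, 8.75 and 8.76 in NRas-KO, and 8.72, 8.80, 9.22, 8.83 and 8.72 in DKO. With NAC it read 9.41, 9.47, 9.56 and 9.43 in controls, 9.43, 9.29 and 9.32 in HRas-KO, 9.57, 9.40 and 9.44 in NRas-KO, and 9.48, 9.61, 9.73 and 9.44 in DKO. All 14 NAC arrays lay above all 14 untreated arrays, the nearest untreated one being DKO replicate 3. The log2 differences were 0.82 ± 0.11 in controls (1.76-fold, adjusted p = 4.8e-05), 0.94 ± 0.12 in HRas-KO (1.91-fold, adjusted p = 5.2e-05), 0.77 ± 0.12 in NRas-KO (1.71-fold, adjusted p = 0.00039) and 0.71 ± 0.10 in DKO (1.63-fold, adjusted p = 5.1e-05).

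Ndufa3, a small membrane subunit of the same part of the arm, moved the opposite way. It read 9.90, 9.75 and 9.49 in Control, 9.78, 9.54 and 9.93 in HRas-KO, 9.78, 9.72 and 9.72 in NRas-KO, and 9.62, 9.82, 9.37, 9.78 and 9.75 in DKO. With NAC it read 9.07, 8.70, 8.97 and 8.69 in controls, 8.70, 8.82 and 9.05 in HRas-KO, 9.24, 8.79 and 8.89 in NRas-KO, and 8.89, 9.27, 9.16 and 8.74 in DKO. Every NAC array lay below every untreated array. The log2 differences were -0.86 ± 0.14 in controls (0.552 times the untreated level, adjusted p = 0.00032), -0.90 ± 0.15 in HRas-KO (0.538 times, adjusted p = 0.00046), -0.77 ± 0.15 in NRas-KO (0.587 times, adjusted p = 0.003) and -0.65 ± 0.13 in DKO (0.636 times, adjusted p = 0.0011).

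The calls of Ndufc2 and Ndufa3 held in all 4 genotypes under every one of the 38 other fits, among them the fit with muscle covariates and the one that drops the 5 muscle-rich arrays named above. Over those fits the smallest Ndufc2 difference was 0.65 and the smallest Ndufa3 difference was -0.56, both in DKO. None of these fits separates the arm from the code starts, which differ between the arms. Several other marker lists moved with the arm, and their part was not tested. The 6 fibroblast markers had a mean deviation of -0.03 to 0.53 on untreated arrays and -0.40 to 0.05 on NAC arrays. Among them Col1a1 read 10.24 to 11.13 untreated and 9.16 to 10.19 with NAC. Pdgfra did not separate the arms (9.47 to 10.17 and 9.58 to 10.09). The mean of the 8 alveolar type 2 markers separated the arms without overlap in 3 genotypes. It was 0.03 to 0.24 in Control against -0.03 to 0.02 with NAC. In HRas-KO it was 0.14 to 0.30 against -0.14 to 0.01, and in NRas-KO 0.03 to 0.17 against -0.03 to -0.02. In DKO the arms overlapped (-0.30 to 0.03 against -0.27 to -0.0013). These markers did not move together. In controls Etv5 read 8.20 to 8.79 untreated and 7.78 to 8.24 with NAC, while Sftpa1 read 11.61 to 11.87 and 11.76 to 11.98. Lamp3 was higher with NAC in all 4 genotypes without overlap, in controls at 11.28 to 11.32 against 10.75 to 10.98. In the mean of the 7 measured ciliated airway markers the arms did not overlap in NRas-KO (0.04 to 0.25 against -0.39 to -0.05). Rsph1 of that list did not fall there (6.49 to 6.66 against 6.48 to 7.08).

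Ndufb6, an accessory subunit of the distal membrane arm, was called higher in 3 of the 4 genotypes. Untreated arrays read 6.63, 6.46 and 6.61 in Control, 6.62, 6.56 and 6.51 in HRas-KO, 6.45, 6.52 and 6.60 in NRas-KO, and 6.56, 6.71, 6.71, 6.57 and 6.48 in DKO. NAC arrays read 6.98, 6.71, 7.02 and 7.01 in controls, 7.0, 6.83 and 7.23 in HRas-KO, 7.23, 6.91 and 6.86 in NRas-KO, and 6.84, 6.88, 6.91 and 6.79 in DKO. Within each genotype the arms did not overlap, and Control+NAC replicate 2 was the lowest NAC array. The log2 differences were 0.36 ± 0.10 in controls (adjusted p = 0.018), 0.46 ± 0.11 in HRas-KO (adjusted p = 0.0071) and 0.48 ± 0.11 in NRas-KO (adjusted p = 0.0088), and 0.25 ± 0.09 in DKO, which was not called (adjusted p = 0.072). With muscle markers as covariates the call was lost in controls (0.31 ± 0.12, adjusted p = 0.11) and in HRas-KO (0.41 ± 0.13, adjusted p = 0.056). With only the arrays compared it was lost in controls (adjusted p = 0.055) and NRas-KO (adjusted p = 0.093). It was also lost without Control replicate 2 (adjusted p = 0.12) or Control+NAC replicate 3 (0.053) in controls, without HRas-KO+NAC replicate 3 (0.062) in HRas-KO, and without NRas-KO+NAC replicate 1 (0.069) in NRas-KO.

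Ndufs1, the large core subunit that carries iron-sulfur clusters, was called higher in 2 genotypes. It read 7.31, 7.37 and 7.62 in Control, 7.64, 7.32 and 7.36 in HRas-KO, 7.30, 7.57 and 7.38 in NRas-KO, and 7.50, 7.20, 7.84, 7.20 and 7.34 in DKO. With NAC it read 7.89, 8.14, 7.88 and 8.14 in controls, 8.09, 7.96 and 7.77 in HRas-KO, 7.80, 7.79 and 7.75 in NRas-KO, and 7.82, 7.62, 7.80 and 7.63 in DKO. The arms overlapped in DKO alone, where replicate 3 of the untreated group exceeded all 4 NAC arrays. The log2 differences were 0.58 ± 0.13 in controls (adjusted p = 0.0038), 0.50 ± 0.14 in HRas-KO (adjusted p = 0.019), 0.37 ± 0.14 in NRas-KO (adjusted p = 0.12) and 0.30 ± 0.11 in DKO (adjusted p = 0.09). The call in controls held in all 38 other fits. That in HRas-KO held in both muscle fits and was lost without HRas-KO replicate 2 or 3 or HRas-KO+NAC replicate 1 or 2 (adjusted p = 0.05 to 0.1).

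Ndufa4, the complex IV subunit, was called higher in 3 genotypes. It read 9.22, 9.35 and 9.55 in Control, 9.44, 9.01 and 9.40 in HRas-KO, 9.14, 9.71 and 9.50 in NRas-KO, and 9.35, 9.24, 9.77, 9.13 and 9.38 in DKO. With NAC it read 10.03, 9.64, 10.05 and 9.81 in controls, 9.98, 9.72 and 9.92 in HRas-KO, 10.03, 9.51 and 9.67 in NRas-KO, and 9.51, 9.93, 9.95 and 9.83 in DKO. The arms overlapped in NRas-KO and DKO. The log2 differences were 0.51 ± 0.16 in controls (adjusted p = 0.034), 0.59 ± 0.17 in HRas-KO (adjusted p = 0.024), 0.29 ± 0.17 in NRas-KO (adjusted p = 0.38) and 0.44 ± 0.14 in DKO (adjusted p = 0.042). With muscle markers as covariates all 3 calls were lost (0.49 ± 0.17, adjusted p = 0.073 in controls; 0.46 ± 0.19, adjusted p = 0.14 in HRas-KO; 0.45 ± 0.17, adjusted p = 0.11 in DKO). Of 38 other fits the call was lost in 5, 4 and 11 in the same order. Among these were the fits without Control replicate 1 or 2 or Control+NAC replicate 1 or 3, without HRas-KO replicate 2 or HRas-KO+NAC replicate 1 or 3, and without any of DKO replicates 1, 2, 4 and 5 or DKO+NAC replicates 2, 3 and 4.

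Ndufa4l2, the paralog, was not called in any genotype in the fit of all 28 arrays: the log2 differences were -0.76 ± 0.30, -0.66 ± 0.32, -0.86 ± 0.32 and -0.27 ± 0.26 (adjusted p = 0.09, 0.2, 0.11 and 0.58). The order is controls, HRas-KO, NRas-KO and DKO. With muscle markers as covariates it was called lower in controls (-1.22 ± 0.29, adjusted p = 0.0082) and NRas-KO (-1.35 ± 0.31, adjusted p = 0.0097). Without the 5 muscle-rich arrays it was called in the same genotypes (-0.98 ± 0.27, adjusted p = 0.015, and -1.0 ± 0.28, adjusted p = 0.042). It was also called in controls with array weights (adjusted p = 0.045), in controls and HRas-KO with only the arrays compared (adjusted p = 0.016 and 0.014), and in NRas-KO without NRas-KO+NAC replicate 1 (-1.23 ± 0.32, adjusted p = 0.031). Whether it differs with NAC thus depended on the fit. Ndufa4l2 varied widely within groups, from 7.87 to 9.40 in untreated DKO and from 7.61 to 8.96 in NRas-KO+NAC.

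**Figure D4:**
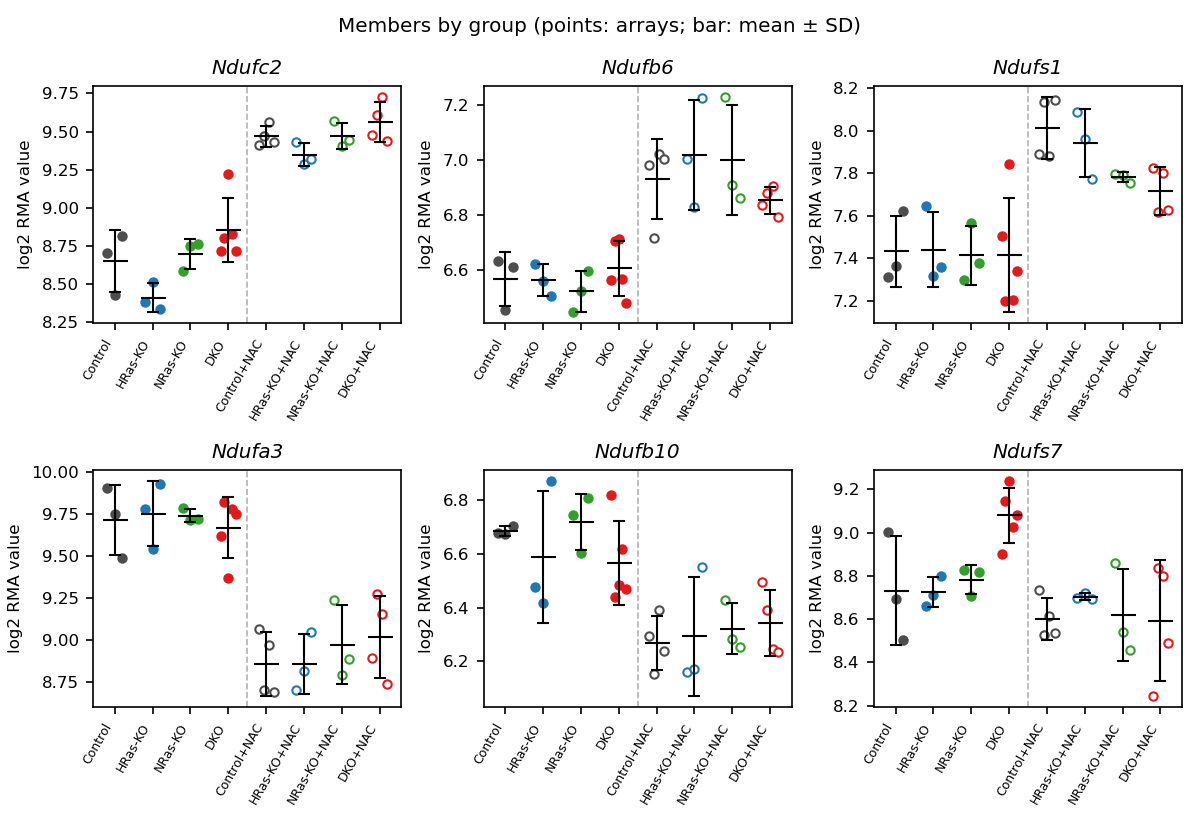
Log2 RMA values of Ndufc2, Ndufb6, Ndufs1, Ndufa3, Ndufb10 and Ndufs7 by group, untreated left of the dashed line (filled points) and NAC right of it (open points); each point is an array, and bars give the mean ± SD. Ndufc2 and Ndufa3 separate the arms completely, at 8.34 to 9.22 against 9.29 to 9.73 and at 9.37 to 9.93 against 8.69 to 9.27.

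Other members were called in 1 genotype each. Ndufs4, an accessory subunit of the peripheral arm whose loss in mice causes a fatal encephalopathy, was higher in controls (7.45 ± 0.20 to 7.89 ± 0.11, SD, n = 3 and 4; log2 difference 0.44 ± 0.12, adjusted p = 0.015). Its differences in the other genotypes were 0.30, 0.35 and 0.16, not called. Ndufb10, a distal membrane subunit, was lower in controls, where the 3 untreated arrays read 6.67 to 6.71 and the 4 NAC arrays 6.15 to 6.39 (log2 difference -0.42 ± 0.12, adjusted p = 0.017). In the other genotypes it differed by -0.30, -0.40 and -0.22 (adjusted p = 0.13, 0.052 and 0.16). Ndufv2, a core subunit with an iron-sulfur cluster, was higher in HRas-KO (8.13 ± 0.08 to 8.65 ± 0.23, SD, n = 3 each; 0.52 ± 0.15, adjusted p = 0.022) and differed by 0.36, 0.32 and 0.30 in Control, NRas-KO and DKO, not called. Ndufb5, a distal membrane subunit, was called higher in DKO (7.15 ± 0.13 to 7.55 ± 0.14, SD, n = 5 and 4; 0.40 ± 0.12, adjusted p = 0.023), and its differences elsewhere were 0.38, 0.33 and 0.45 (adjusted p = 0.055, 0.14 and 0.057). Between genotypes, the size of the NAC difference was tested for DKO against Control only.

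With muscle markers as covariates the Ndufb5 call in DKO was lost (0.30 ± 0.15, adjusted p = 0.24), as was the Ndufv2 call in HRas-KO (0.43 ± 0.17, adjusted p = 0.13). Without the 5 muscle-rich arrays Ndufb5 was lost too (0.39 ± 0.16, adjusted p = 0.14). The calls of Ndufs4 and Ndufb10 held in both muscle fits but were lost without Control replicate 1 (adjusted p = 0.11 and 0.055) or 2 (0.067 and 0.06). Ndufv2 was lost without HRas-KO replicate 2 or 3 or HRas-KO+NAC replicate 1 or 3 (adjusted p = 0.056 to 0.14). Ndufb5 was lost without DKO replicate 1 or DKO+NAC replicate 2 or 3 (adjusted p = 0.056 to 0.088).

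Second probe sets exist for Ndufa12 and Ndufa8 as well. That of Ndufa12, a peripheral-arm subunit (mean 5.29), was higher with NAC in HRas-KO (0.43 ± 0.13, adjusted p = 0.025), where the brightest one differed by 0.06 ± 0.15. That of Ndufa8 (mean 6.56) differed by 0.54 ± 0.19 in controls (adjusted p = 0.054), where the brightest one differed by 0.01 ± 0.15, so the probe sets of these genes did not run alike.

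In DKO lungs 5 members were lower with NAC. Besides Ndufa3 these were Ndufa7, Ndufs7 (the core subunit next to the ubiquinone site), Ndufb7 and Ndufa10 (a subunit with a nucleoside kinase fold). Ndufa7 read 7.12, 7.35, 7.38 and 6.84 in DKO+NAC, all below the 5 untreated DKO arrays, a log2 difference of -0.68 ± 0.15 (adjusted p = 0.0034). Ndufs7 read 8.90, 9.15, 9.24, 9.03 and 9.08 in DKO and 8.25, 8.84, 8.80 and 8.49 in DKO+NAC, without overlap (-0.49 ± 0.11, adjusted p = 0.0048). Ndufb7 went from 6.92 ± 0.15 to 6.49 ± 0.14 (SD, n = 5 and 4; -0.43 ± 0.10, adjusted p = 0.0048) and Ndufa10 from 9.26 ± 0.08 to 8.93 ± 0.14 (-0.34 ± 0.10, adjusted p = 0.021).

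Ndufa7 and Ndufs7 kept this call in all 38 other fits. Without the 5 muscle-rich arrays, 3 of which are untreated DKO, Ndufb7 (-0.30 ± 0.12, adjusted p = 0.17) and Ndufa10 (-0.36 ± 0.13, adjusted p = 0.1) lost theirs. Ndufa10 was also lost with only the arrays compared (adjusted p = 0.051), with the replicate block (0.059), and without DKO replicate 5 (0.051) or DKO+NAC replicate 1 (0.093) or 3 (0.05). Without the array labelled DKO+NAC replicate 4 the 5 calls held, at -0.56 for Ndufa3, -0.57 for Ndufa7, -0.45 for Ndufs7, -0.39 for Ndufb7 and -0.39 for Ndufa10. Between DKO and DKO+NAC the mean deviation of the 10 heart muscle markers did not overlap (-0.32 to 0.09 against -0.63 to -0.38), nor did that of the 3 measured erythroid markers of 9 listed (0.12 to 0.70 against -0.23 to 0.01). Skeletal muscle (-0.13 to 1.59 against -0.43 to -0.24) and fibroblast markers (0.0055 to 0.53 against -0.40 to -0.10) did not overlap either. Tcf21 of the fibroblast list went the other way (9.23 to 9.50 in DKO against 9.70 to 10.20 in DKO+NAC). In the fit with both muscle means as covariates all 5 calls held; the part of the erythroid and fibroblast markers was not tested.

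Set beside these, the differences of the same members with NAC in controls were -0.09 ± 0.17 for Ndufa7, -0.13 ± 0.13 for Ndufs7, -0.11 ± 0.11 for Ndufb7 and 0.03 ± 0.11 for Ndufa10. Against untreated Control, the untreated DKO values differed by 0.57 for Ndufa7 (called), 0.35 for Ndufs7, 0.24 for Ndufb7 and 0.13 for Ndufa10 (not called). That comparison and DKO+NAC against DKO share the 5 untreated DKO arrays. Ndufa11 read 8.15, 8.49, 8.41 and 8.11 in DKO+NAC, a difference of -0.35 ± 0.15 from DKO (adjusted p = 0.13), and Ndufc1 read 6.33, 6.53, 6.38 and 6.45, a difference of 0.22 ± 0.15 (adjusted p = 0.38).

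The difference of differences, NAC in DKO minus NAC in Control, called 0 of 34 members, beside 0.388% of all genes (86 genes). By limma 6 members and 2888 genes had an unadjusted p under 0.05. Ndufa11 had the smallest p (-0.73 ± 0.23, adjusted p = 0.14), then Ndufa7 (-0.59 ± 0.23, adjusted p = 0.24) and Ndufa10 (-0.36 ± 0.15, adjusted p = 0.28). A smaller or larger response of DKO than of Control lungs was therefore not shown for any member.

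Within the NAC arm genotypes were not told apart by these genes. DKO+NAC against Control+NAC called 0 of 34 members, beside 0% of all genes, with 2 members and 2116 genes at an unadjusted p under 0.05. The smallest p-values were those of Ndufs1 (-0.30 ± 0.12, adjusted p = 0.44), Ndufa10 (-0.24 ± 0.10, adjusted p = 0.47) and Ndufb9 (-0.25 ± 0.12, adjusted p = 0.53). Ndufa11, Ndufa7 and Ndufc1, called in the untreated arm, averaged 8.29 ± 0.19, 7.17 ± 0.25 and 6.42 ± 0.08 in DKO+NAC (SD, n = 4) and 8.30 ± 0.33, 7.20 ± 0.35 and 6.67 ± 0.22 in Control+NAC (SD, n = 4). HRas-KO+NAC against Control+NAC called 0 of 34, beside 0% of all genes (1 member and 1408 genes unadjusted), led by Ndufb8 (0.24 ± 0.11, adjusted p = 0.76), Ndufa5 (0.18 ± 0.12) and Ndufa13 (-0.19 ± 0.14). NRas-KO+NAC against Control+NAC also called 0 of 34, beside 0% of all genes (0 members and 2321 genes unadjusted), led by Ndufs1 (-0.23 ± 0.13, adjusted p = 0.54), Ndufc1 (-0.27 ± 0.17) and Ndufb7 (0.16 ± 0.11).

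The NAC differences of the members were compared between the 4 genotypes. Spearman's rho between pairs of these comparisons, over the 34 members, lay between 0.51 and 0.87, beside 0.37 to 0.74 over all genes. The comparisons share no array, though arrays of different genotypes share code starts, and genes are not independent replicates. Between the DKO differences of the untreated and the NAC arm rho was 0.19 over the 34 members (0.035 over all genes), and 17 of 34 had the same sign.

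Within groups the members also varied together. After each group's mean was removed, the correlation between pairs of members over the 28 arrays averaged 0.322 (561 pairs, 501 above 0), beside 0.00642 for all genes. The value for all genes takes in dim genes and genes that move in opposite directions, so it is not a matched reference. Ndufs8, a core iron-sulfur subunit, followed the others most closely (mean 0.490), while Ndufs1 and Ndufs5 did not (-0.045 and -0.048). All values of an array share its hybridisation and normalization, so this is a description of these arrays.

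**Figure D5:**
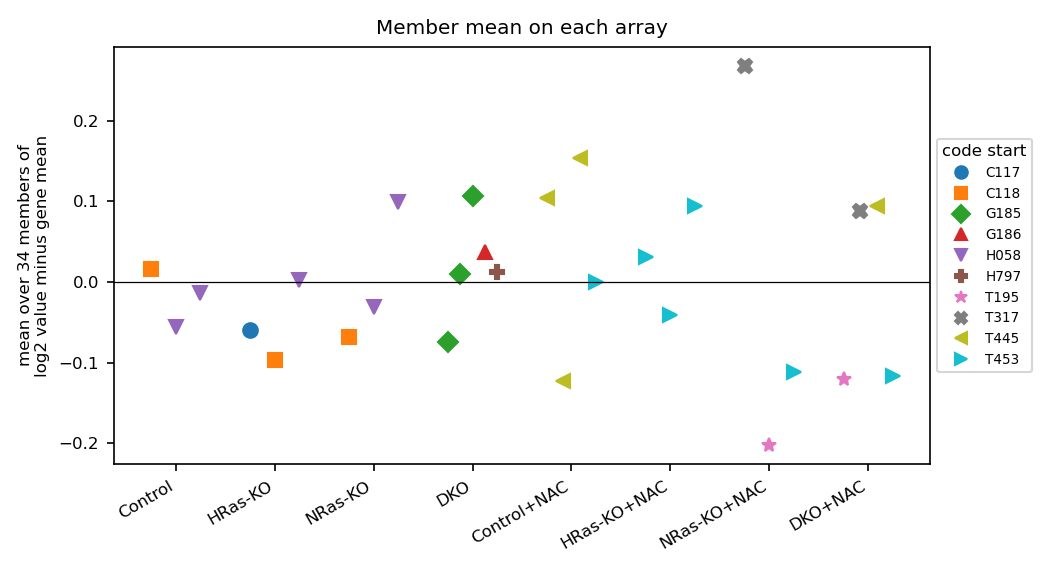
Mean over the 34 members of log2 value minus the gene's mean over all arrays, for each array by group, with the marker giving the start of the sample's code. The values of NRas-KO+NAC run from -0.20 to 0.27 and those of untreated Control from -0.06 to 0.02, and the group means lie between -0.05 and 0.03.

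The mean over the 34 members showed where this common variation lay. It ran from -0.07 to 0.11 in DKO, -0.06 to 0.02 in Control, -0.10 to 0.00 in HRas-KO and -0.07 to 0.10 in NRas-KO. In the NAC arm it ran from -0.12 to 0.09 in DKO, -0.12 to 0.15 in controls, -0.04 to 0.09 in HRas-KO and -0.20 to 0.27 in NRas-KO. All groups overlapped, and the NRas-KO+NAC arrays were the most spread. Without NRas-KO+NAC replicate 1, the highest array of all, the NAC comparison in NRas-KO called 1 member higher and 4 lower in place of 2 and 1, and the median member difference between NRas-KO+NAC and Control+NAC was -0.19 in place of -0.03.

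Genes around the complex were read from lists of 16 assembly factors, 11 regulators of nuclear genes for respiratory subunits, 4 complex II subunits and 8 other dehydrogenases that feed the quinone pool or take NADH. No gene of these lists was called in the single knockouts or within the NAC arm, where 0% of all genes were called. In untreated DKO 1 of 16 assembly factors was called higher (2.48% of all genes), Acad9, a flavoprotein needed to build complex I, which rose by 0.38 ± 0.09 (adjusted p = 0.018). It was also higher with NAC in controls (0.36, adjusted p = 0.011) and HRas-KO (0.40, adjusted p = 0.01).

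With NAC, 3 of 16 assembly factors were called higher in controls (Acad9, Ndufaf7 and Nubpl; 7.86% of all genes), 2 in HRas-KO (Acad9 and Ndufaf5; 6.73%), 0 in NRas-KO (2.86%) and 4 in DKO (5.74%), and none lower. The 4 in DKO were Ndufaf3 (0.51 ± 0.12, adjusted p = 0.0045), Ndufaf1 (0.43 ± 0.10, adjusted p = 0.0046), Timmdc1 (0.33 ± 0.10, adjusted p = 0.033) and Ndufaf5 (0.21 ± 0.07, adjusted p = 0.045). With muscle markers as covariates, of all these NAC calls only that of Ndufaf1 in DKO held (0.50 ± 0.13, adjusted p = 0.02). Without the 5 muscle-rich arrays only those of Ndufaf5 and Timmdc1 in DKO were lost. The median difference of the 16 was 0.20, 0.17, 0.12 and 0.12 in the 4 genotypes, against 0.02 to 0.03 for all genes.

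Among regulators, Gabpa, the DNA-binding subunit of GABP, was higher in untreated DKO (0.50 ± 0.11, adjusted p = 0.0082) and with NAC in controls (0.61 ± 0.11, adjusted p = 7e-04), HRas-KO (0.75 ± 0.12, adjusted p = 0.00023) and NRas-KO (0.41 ± 0.12, adjusted p = 0.036). Its Control arrays read 8.12, 8.09 and 8.37 and its DKO arrays 8.61, 8.79, 8.62, 8.50 and 8.95, without overlap. Gabpb1, its partner, rose with NAC in controls (0.46) and HRas-KO (0.52). Pprc1, a coactivator of the PGC-1 family, fell by 0.74 and 0.91 in these genotypes, and Polrmt, the mitochondrial RNA polymerase, fell by 0.42 and 0.70. Tfam, which packages mitochondrial DNA, rose with NAC in HRas-KO (0.44, adjusted p = 0.03) and DKO (0.37, adjusted p = 0.024), and Tfb2m, a mitochondrial transcription factor, in HRas-KO (0.79, adjusted p = 0.013). In all, 2 of 11 regulators were called higher and 2 lower with NAC in controls (7.86% and 5.68% of all genes), 4 and 2 in HRas-KO (6.73% and 5.1%), 1 and 0 in NRas-KO (2.86% and 3.56%) and 1 and 0 in DKO (5.74% and 6.46%). In untreated DKO 1 was called higher and 0 lower (2.48% and 1.35%).

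Of the 4 complex II subunits Sdhc, a membrane anchor, was lower in untreated DKO (7.09, 6.94, 7.06, 7.08 and 7.10, against 8.0, 7.79 and 7.36 in Control; -0.66 ± 0.19, adjusted p = 0.043) and higher with NAC in DKO (0.66 ± 0.17, adjusted p = 0.01); both rest on the same DKO arrays. That is 1 of 4 lower in untreated DKO (1.35% of all genes) and 1 of 4 higher with NAC in DKO (5.74%). Among the other dehydrogenases Etfa, a subunit of the electron transfer flavoprotein, was higher with NAC in controls (0.55, adjusted p = 0.0038) and HRas-KO (0.42, adjusted p = 0.04), Aifm1 in controls (0.45, adjusted p = 0.034) and Sqor, sulfide:quinone oxidoreductase, in DKO (0.54, adjusted p = 0.0081). With NAC, 2 of these 8 were called higher in controls (7.86% of all genes) and 1 in HRas-KO (6.73%). In NRas-KO 0 were called higher (2.86%) and in DKO 1 (5.74%), and none was called lower.

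Since Ndufa4l2 is known as a hypoxia-induced gene, 9 measured genes of a list of 10 such genes were set beside it. In untreated DKO 3 of the 9 were higher (2.48% of all genes), namely Egln3 (1.39 ± 0.35, adjusted p = 0.022), Slc2a1 (0.72 ± 0.17, adjusted p = 0.015) and Bnip3 (0.70 ± 0.18, adjusted p = 0.026), while Ndufa4l2 differed by -0.45 ± 0.28 (adjusted p = 0.5). With NAC in DKO 3 of the 9 were lower (6.46% of all genes): Slc2a1 (-0.86), Ndrg1 (-0.64) and Car9 (-0.42). In controls Vegfa (-0.44) and Car9 (-0.63) were lower (5.68% of all genes) and Bnip3 (0.65) was higher with NAC (7.86%). Vegfa was also lower in HRas-KO and NRas-KO (5.1% and 3.56% of all genes), and Bnip3 higher in HRas-KO (6.73%).

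The calls of these 5 lists, 41 over all comparisons, were repeated in 3 other fits chosen after seeing the data. With muscle markers as covariates 16 held and 25 were lost, and without the 5 muscle-rich arrays 29 held and 12 were lost, with 0 reversed. The covariates also gained 1 call, Ndrg1 lower with NAC in NRas-KO. Without the muscle-rich arrays 3 were gained with NAC: Ndufaf5 higher in controls, Polrmt lower in NRas-KO and Nnt lower in DKO. Lost in both were Acad9, Egln3, Bnip3 and Sdhc in untreated DKO, Ndufaf5, Timmdc1, Tfam and Sqor with NAC in DKO, and Gabpa with NAC in NRas-KO. Gabpa and Slc2a1 in untreated DKO were lost without the muscle-rich arrays alone (0.53 ± 0.14, adjusted p = 0.075, and 0.76 ± 0.23, adjusted p = 0.14). Gabpa and Vegfa with NAC in controls and HRas-KO, and Slc2a1 with NAC in DKO, held in both. Without the array labelled DKO+NAC replicate 4, 38 of the 41 held, and Ndufaf5 (0.20 ± 0.08, adjusted p = 0.084), Car9 (-0.34 ± 0.11, adjusted p = 0.053) and Ndrg1 (-0.56 ± 0.22, adjusted p = 0.1) were lost in DKO. Nubpl, higher with NAC in HRas-KO, was gained there (0.50 ± 0.15, adjusted p = 0.024).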

How the data were processed

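The deposited log2 values, 1 per probe set (41345) and array (28), were made by the authors by robust multi-array averaging, per the submitters' processing notes, which name RMA and affy; versions are not given in the sources used here. Gene names came from the platform's annotation table (23521 with 1 symbol, 1814 with several, 16010 unlisted). The brightest single-symbol probe set stood for a gene (22180 genes, 1082 with several). limma 3.58.1 in R 4.3.3 (lmFit and eBayes; 20 residual degrees of freedom, 5.95 prior) fitted 8 group means to all 28 arrays. The call was an adjusted p under 0.05, by Benjamini-Hochberg over all genes, in each of 12 comparisons; adjusted p-values and standard errors in the text come from this fit, and differences are log2 differences. The number of arrays limits the precision. No 2 arrays were identical (highest correlation 0.993 over 378 pairs).

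The members and gene lists were chosen with earlier results of these data known. The role of each member was taken from a written list; 105 of 120 list genes were measured. Nras was named as the check of the labels, Hras was not analysed here, and in each comparison the called members were named (otherwise the 3 smallest p-values), with Ndufa4 and Ndufa4l2 always. Members called most often are given array by array. Promoter sequences are those of RefSeq on GRCm38.p6. Alternatives covered the rows standing for a gene, dim genes, normalization, array weights, the arrays in the fit, replicate number and code start as blocks, muscle markers as covariates, and each array left out. The fit without the 5 arrays highest in skeletal muscle markers, and the 3 refits of the other gene lists, were added after seeing the data.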

Additional observations from a re-analysis of the deposited data

Results flagged for a closer look

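Of 102 sets of 4 or more arrays of a group examined for an array apart from the rest by Dixon's ratio, 6 stood out, and chance gives about 1 in 20. Control+NAC replicate 2 was the lowest of its group in 3 of them: Ndufa7 read 6.67 (others 7.31 to 7.42), Ndufa9 8.26 (others 8.43 to 8.46) and Ndufb6 6.71 (others 6.98 to 7.02). The mean over the 34 members was also lowest there, at -0.12. Ndufb8 read 5.85 on DKO+NAC replicate 1 (others 6.30 to 6.36). Ndufc2 read 9.22 on DKO replicate 3 (others 8.72 to 8.83), still below every NAC array. Ndufs5, the dimmest member, read 4.56 on the array labelled DKO+NAC replicate 4 (others 4.63 to 4.64).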

How the results depend on the processing

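Of 27 member calls, 11 held in all 38 other fits: Ndufc2 and Ndufa3 in the 4 NAC comparisons, Ndufs1 in Control+NAC and Ndufa7 and Ndufs7 in DKO+NAC against DKO. Over all calls and fits 913 of 1026 values kept the call, 113 lost it and 0 reversed. Only 10 of the 38 fits did something other than leave out 1 array. Where the array left out belonged to neither group compared, the difference could not change, only its error and adjusted p. These totals are thus partly fixed in advance and do not measure robustness. For DKO against Control the 3 members called became 1 with arrays centred on their median, 1 with the replicate block, 1 with the code start as a random block and 1 with muscle marker means as covariates, and 0 with only the arrays of the groups compared (122 genes called) or without the 5 arrays highest in skeletal muscle markers (213 genes called). For HRas-KO+NAC against HRas-KO the 6 became 10 with array weights and 3 with the muscle covariates. For NRas-KO+NAC against NRas-KO the 3 became 5 without the dimmest 40% of genes, 6 with the muscle covariates and 5 without the 5 muscle-rich arrays. The non-additive effect called 1 member with array weights. The cause of these shifts was not tested. The replicate block moved no other count of called members by over 1.5 times, and these numbers did not pair the arrays: in their deviations from group means, arrays with 1 number in 2 groups of an arm correlated at 0.0212 on average (37 pairs, 13 over 0.1), those sharing a code start at 0.146 (28 pairs) and others at -0.035. The code start as a fixed block could be fitted only within an arm where groups share starts, and its counts stayed at 0.

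Leaving out 1 array at a time gave 0 to 3 for DKO against Control: 0 without Control replicate 3, and 1 without Control replicate 1 or 2, DKO replicate 5, HRas-KO replicate 1 or 3, NRas-KO replicate 2 or 3, Control+NAC replicate 3, any HRas-KO+NAC array, NRas-KO+NAC replicate 3 or DKO+NAC replicate 1, 2 or 3. It gave 3 to 9 for Control+NAC (3 without Control replicate 2, 4 without Control replicate 1), 3 to 7 for HRas-KO+NAC (3 without HRas-KO replicate 2 or HRas-KO+NAC replicate 1), 3 to 5 for NRas-KO+NAC (5 without its replicate 1) and 5 to 10 for DKO+NAC (5 without its replicate 3), each against its untreated genotype, and 0 to 0 for the other 7 comparisons. Rescaling moved the median of all genes by less than 0.1. Groups of 3 to 5 arrays limit what could be called, and Ndufs5 was too dim to be read firmly.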
